A study of Mus musculus with 16 samples.

Results

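Tmem181 and Dynlt1 are small gene families whose near-identical copies lie side by side on mouse chromosome 17, downstream of Arid1b. The 5 copies described here are Tmem181a, Tmem181b-ps, Tmem181c-ps, Dynlt1b and Dynlt1c, of 18424 genes in the expression table, and they were followed singly and as sums over each family. Tmem181b-ps and Tmem181c-ps were chosen by their normalized read counts in HT-Flx and WT-Flx, where both were higher in HT-Flx, and the other 3 because they are close copies or neighbours of them. Values of the 5 copies in that contrast are therefore given as a description, without a test.

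RNA came from the medial prefrontal cortex of 16 males collected at postnatal day 120, in 4 groups of 4 mice, with 1 poly-A library for each mouse. HT mice carry 1 copy of Arid1b, a gene for a SWI/SNF chromatin remodeller component, disrupted in exon 5 by genome editing on the C57BL/6N background, and WT mice come from crosses of HT males with wild-type females. Pups of the Flx groups were given fluoxetine, an antidepressant that blocks serotonin reuptake, through the milk of their dams. These dams drank 0.1 mg per ml of it in 0.2% saccharin from postnatal day 3 to 21. Serum levels of the drug in the pups were not measured directly. Dams of the Veh groups drank 0.2% saccharin alone, so both treatments share the sweetener, and the germline deletion is present in every cell of an HT mouse. The values are normalized read counts, that is, reads estimated for each gene and scaled so that libraries can be compared. The sequencing depth is unknown. In bulk tissue, a lower value from fewer cells of a type and one from less RNA per cell cannot be told apart.

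Tmem181a encodes a multi-pass membrane protein known as a host factor for the cytolethal distending toxin of bacteria. Dynlt1 (Tctex-1) is a light chain of cytoplasmic dynein, the motor that moves cargo along microtubules toward the cell body of a neuron, where dynactin acts as its partner. Pseudogenes such as Tmem181b-ps and Tmem181c-ps are copies of a gene that are not annotated as encoding a protein, although a transcribed one still makes RNA.

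In GRCm38 coordinates Tmem181a (ENSMUSG00000038141, chr17:6256860-6308314, plus strand, protein coding) begins 0.909 Mb past the end of Arid1b (chr17:4994332-5347656). Tmem181b-ps (ENSMUSG00000096780, chr17:6438524-6467022, minus strand) is annotated as a transcribed unprocessed pseudogene. Tmem181c-ps (ENSMUSG00000093880, chr17:6613753-6639790, minus strand) is annotated as an unprocessed pseudogene. Beside each pseudogene, on the other strand, lies a protein-coding Dynlt1 gene: Dynlt1b (ENSMUSG00000096255, chr17:6430112-6436296, plus strand) and Dynlt1c (ENSMUSG00000000579, chr17:6601671-6609774, plus strand). The paralogs Dynlt1a (chr17:6306340-6317500) and Dynlt1f (chr17:6646602-6655900) are both on the minus strand. Dynlt1a overlaps the end of Tmem181a by 1975 bases on the opposite strand, and Dynlt1f lies past Tmem181c-ps.

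**Figure D1:**
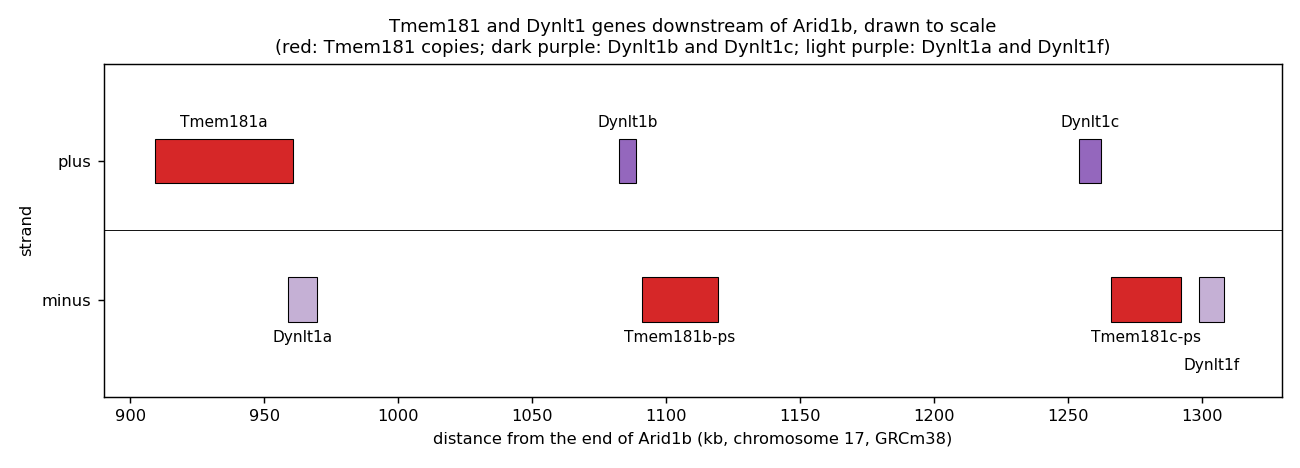
Map of the Tmem181 and Dynlt1 genes, drawn to scale, with the distance from the end of Arid1b in kb on the x axis and the strand on the y axis. Each Tmem181 copy has a Dynlt1 gene beside it on the opposite strand, and the 5 copies described begin 0.909 to 1.266 Mb from Arid1b.

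The copies were compared as sequences first, because the division of reads among them rests on where they differ. The 3 Tmem181 copies could be aligned over 2 blocks of exon sequence with 760 bases in all, of which 5 positions differed between any of them. Tmem181a and Tmem181b-ps differed at 2 of these positions, and Tmem181c-ps differed from each of them at 4. Below is the 100-base stretch with the most differences, in transcript direction, with the 2 differing positions in capitals. It spans an exon junction at chr17:6297958-6298223 in Tmem181a, chr17:6448542-6448807 in Tmem181b-ps and chr17:6620305-6620570 in Tmem181c-ps, and it shows how little separates reads of the copies.
Tmem181a: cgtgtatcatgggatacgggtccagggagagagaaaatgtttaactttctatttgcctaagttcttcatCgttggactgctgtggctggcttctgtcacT
Tmem181b-ps: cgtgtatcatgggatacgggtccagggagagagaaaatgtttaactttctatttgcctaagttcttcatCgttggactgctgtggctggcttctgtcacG
Tmem181c-ps: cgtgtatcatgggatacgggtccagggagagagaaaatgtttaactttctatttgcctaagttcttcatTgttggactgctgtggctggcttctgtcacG

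Tmem181b-ps also has transcript sequence not annotated in the other copies. Its longest transcript, of 2426 bases, holds a run of 953 bases found in the annotated transcripts of neither other copy. The run begins at chr17:6448298-6448357 on the minus strand with the 60 bases shown here, because it sets this transcript apart from theirs. Introns of the other copies were not compared, and no comparison of the run with genes outside the family is given.
Tmem181b-ps own run: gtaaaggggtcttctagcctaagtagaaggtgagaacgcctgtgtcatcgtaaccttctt

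The Dynlt1 genes were compared over their coding sequence. Over the 339 coding bases, Dynlt1a, Dynlt1c and Dynlt1f were identical, and Dynlt1b differed from them at 1 position, in capitals in the first 90 coding bases, which are shown because that position holds the whole difference between the coding sequences. The stretch starts at the translation start and spans exons 1 to 3, at chr17:6311812-6317400 in Dynlt1a, chr17:6430212-6435028 in Dynlt1b, chr17:6601810-6606632 in Dynlt1c and chr17:6650206-6655800 in Dynlt1f.
Dynlt1a: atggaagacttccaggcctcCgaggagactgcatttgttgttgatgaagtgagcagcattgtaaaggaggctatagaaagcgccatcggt
Dynlt1b: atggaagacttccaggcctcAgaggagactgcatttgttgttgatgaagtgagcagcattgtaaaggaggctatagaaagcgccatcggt
Dynlt1c: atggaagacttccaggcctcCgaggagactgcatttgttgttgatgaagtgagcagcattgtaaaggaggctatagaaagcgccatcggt
Dynlt1f: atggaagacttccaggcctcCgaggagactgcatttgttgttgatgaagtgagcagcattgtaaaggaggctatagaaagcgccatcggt

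A read can be placed on 1 copy only if it covers sequence that no other copy has. Of all 31-base words in the annotated transcripts of a gene, 31 being the usual word length of the index of the quantifier, 60.7% were found in Tmem181a alone, 40.1% in Tmem181b-ps alone and 18.7% in Tmem181c-ps alone. Tmem181c-ps shared 77.8% of its words with Tmem181b-ps and 72.6% with Tmem181a. Only 13.1% of the words of Dynlt1b and 7.60% of those of Dynlt1c were found in that gene alone, and the rest were shared with other genes. The single values of Tmem181c-ps, Dynlt1b and Dynlt1c are thus the least certain, and the summed Tmem181 counts do not depend on how reads were divided among the 3 Tmem181 copies. The sum of Dynlt1b and Dynlt1c does not have this property, since Dynlt1c shared 81.1% of its words with Dynlt1f and 70.9% with Dynlt1a but 16.1% with Dynlt1b, and a sum over all 4 Dynlt1 genes is given beside it.

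**Figure D2:**
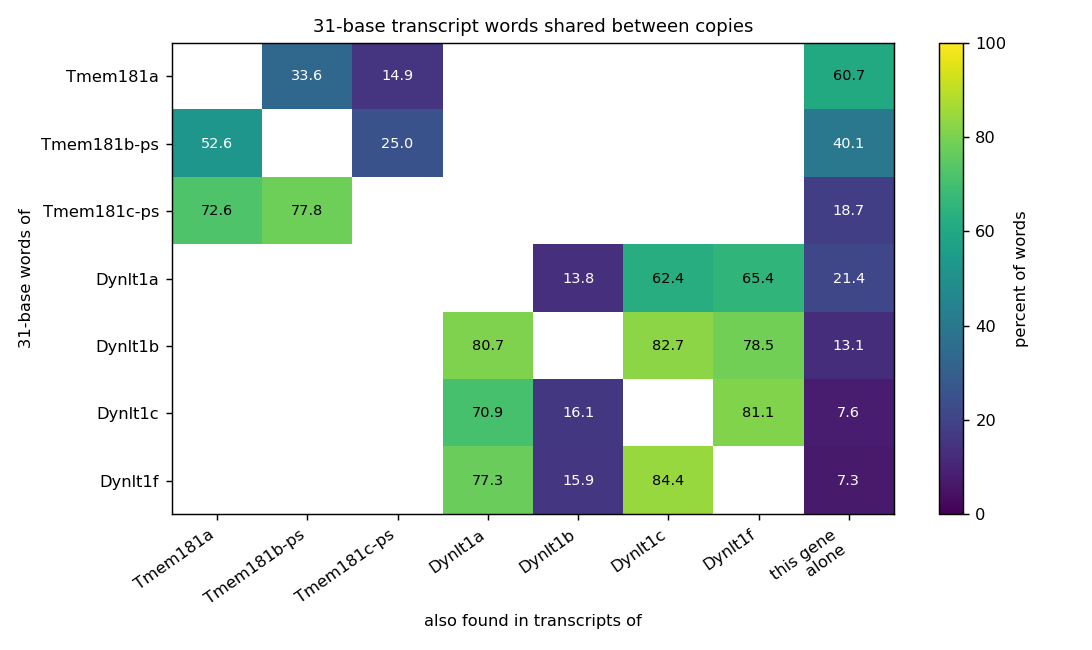
Percent of the 31-base words of each gene (rows) that were also found in each other gene of its family, or in that gene alone among all annotated transcripts (last column). Tmem181a holds the largest share of words of its own, 60.7%, and Dynlt1f and Dynlt1c the smallest, 7.31% and 7.60%.

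Before the values, the libraries were checked. Arid1b, the targeted gene, had normalized read counts of 2368 ± 432 and 2159 ± 233 in WT mice with vehicle and fluoxetine, and of 1795 ± 160 and 1636 ± 61.0 in HT mice (mean ± SD, n = 4). With vehicle its genotypes overlapped, as WT-Veh replicate 1 (1787) was below HT-Veh replicates 1 (2005) and 3 (1802). HT-Flx and WT-Flx did not overlap. All 7 markers of cortical projection neurons were listed, with sums from 42799 to 62395. Of 9 markers of the olfactory bulb, a list first written after these libraries had been seen to differ in them, 8 were listed, and their score, the mean log2(value + 1), stood above 7 in 5 libraries. The highest was WT-Veh replicate 1 (9.48), and the others were HT-Veh replicate 4 (7.55) and 3 of the 4 WT-Flx mice (replicates 1, 2 and 4, at 7.15, 7.78 and 9.002), against 3.72 to 4.82 in the other 11. The summed bulb markers ran from 254 to 10287 in WT-Veh and 410.3 to 7796 in WT-Flx, and from 269 to 2964 in HT-Veh and 226 to 354 in HT-Flx, with Barhl2 at 0 in 5 libraries and Eomes at 0 in 1 of these. Bulb score and genotype thus moved together among the Flx mice, where WT-Flx (4.82 to 9.002) and HT-Flx (3.72 to 4.58) did not overlap.

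Tmem181b-ps had the highest level of the family, in counts and per kb of exon. Its normalized read counts were 2520, 5385, 4800 and 4963 in WT-Veh replicates 1 to 4, and 3347, 3132, 3569 and 3973 in WT-Flx. They were 6488, 7438, 6702 and 7052 in HT-Veh, and 7885, 5607, 9252 and 7382 in HT-Flx. Every HT mouse was above every WT mouse, and WT-Veh replicate 1, the library with the highest bulb score, was the lowest of the 16.

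Tmem181a, the protein-coding gene, was at 2262, 3450, 3285 and 3295 in WT-Veh, and at 2921, 2736, 2942 and 2967 in WT-Flx. In HT mice it was at 3694, 3848, 3895 and 3625 with vehicle, and at 4044, 3522, 3947 and 3686 with fluoxetine. The genotypes again did not overlap, although the highest WT value, 3450, and the lowest HT value, 3522, lay close together.

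Tmem181c-ps was the lowest of the family, in counts and per kb, at 57.2, 180.5, 135 and 212 in WT-Veh and 59.9, 81.8, 104.9 and 94.1 in WT-Flx. It was at 232, 298, 200.2 and 210.4 in HT-Veh and 298, 187, 277 and 203 in HT-Flx. Here the genotypes overlapped through WT-Veh replicate 4, which was above 4 of the 8 HT mice.

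Dynlt1b was at 327, 304, 272 and 299.9 in WT-Veh, 379, 203, 235 and 384 in WT-Flx, 429, 329, 391 and 385 in HT-Veh, and 447, 292, 376 and 425 in HT-Flx. Its WT-Flx values fell apart into a low and a high pair, and 5 of the 8 WT mice were above the lowest HT mouse. Dynlt1c was at 69.0, 83.4, 78.6 and 133 in WT-Veh, 121, 69.2, 103 and 102 in WT-Flx, 139, 131, 130.5 and 205 in HT-Veh, and 219.6, 157, 191 and 140.4 in HT-Flx. The genotypes overlapped in Dynlt1c through 1 WT mouse, WT-Veh replicate 4.

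**Figure D3:**
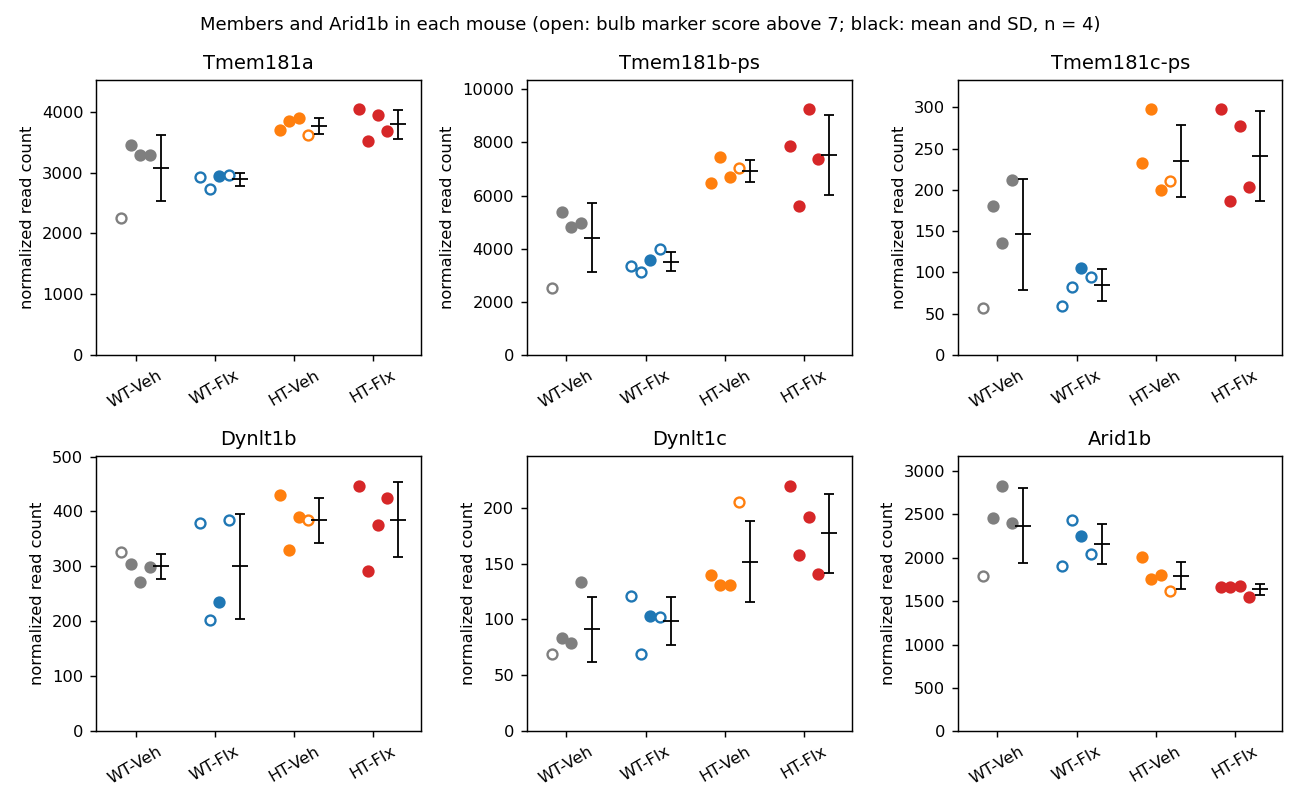
Normalized read counts of the 5 copies and of Arid1b in each mouse by group, with the mean and SD in black (n = 4) and libraries with a bulb marker score above 7 as open symbols. Tmem181a and Tmem181b-ps are higher in all 8 HT mice than in all 8 WT mice, with WT maxima of 3450 and 5385 and HT minima of 3522 and 5607, and Arid1b has lower means in HT.

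To compare levels between genes, counts were divided by annotated exon length. Per kb of exon and over all 16 mice, Tmem181b-ps stood at 1336 ± 469, Tmem181a at 517 ± 76.7, Dynlt1b at 444 ± 92.4, Tmem181c-ps at 128 ± 58.0, Dynlt1a at 60.9 ± 12.0, Dynlt1c at 34.3 ± 12.3 and Dynlt1f at 27.7 ± 4.34 (mean ± SD, n = 16). Tmem181a and Dynlt1b are neighbours in this order that lie within their spread, as are Dynlt1c and Dynlt1f. The order of the latter pair was not the same in every group: Dynlt1c had the lower mean in WT-Veh (24.1 against 28.1 per kb) and WT-Flx (26.2 against 31.3), and the higher one in HT-Veh (40.1 against 24.1) and HT-Flx (46.9 against 27.3), without overlap in both HT groups. Annotated length is not the length of the transcripts used, so this order is approximate.

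With vehicle, the comparison of HT with WT used no mice of the contrast from which the copies were picked. The list was still chosen with earlier results of these data known, so this comparison is not independent of the choice. Dynlt1a and Dynlt1f, also close copies, were left out of the list and had log2 differences of 0.0057 (SE 0.18) and -0.21 (SE 0.18). All 5 copies had higher means in HT-Veh than in WT-Veh, Tmem181b-ps at 6920 ± 416 against 4417 ± 1288 and Dynlt1c at 152 ± 36.1 against 91.1 ± 28.8, but none passed the test across all genes. On the log2(value + 1) scale, which understates changes of low genes, the differences were 0.70 (SE 0.20) for Tmem181b-ps, 0.31 (SE 0.12) for Tmem181a and 0.82 (SE 0.35) for Tmem181c-ps. They were 0.35 (SE 0.11) for Dynlt1b and 0.75 (SE 0.23) for Dynlt1c. By limma, the p-values adjusted over 16832 genes were 0.872 for Tmem181b-ps, 0.899 for Dynlt1b and Dynlt1c and 0.922 for Tmem181a and Tmem181c-ps, and 3 genes passed (0.0178% of those tested), none of them a copy. Before adjustment, all 5 had p-values under 0.05, at 0.00610 for Tmem181b-ps, 0.00849 for Dynlt1c, 0.00918 for Dynlt1b, 0.0284 for Tmem181a and 0.0414 for Tmem181c-ps, against 2.63% of all genes that were higher at that level. The 4 HT-Veh values did not overlap the 4 WT-Veh values for Tmem181a, Tmem181b-ps and Dynlt1b, against 2.06% of all genes. The copies share reads, so these 5 values are not independent of each other.

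WT-Veh replicate 1 and HT-Veh replicate 4 have high bulb scores, and WT-Veh replicate 1 also has the lowest Tmem181 values of its group. When both libraries were left out, a choice made after seeing the data, the log2 difference of Tmem181b-ps became 0.44 (SE 0.063) and passed by limma (adjusted p 0.0465), while 11 genes passed in all. The differences of the other copies were then 0.19 for Tmem181a, 0.47 for Tmem181c-ps, 0.39 for Dynlt1b and 0.48 for Dynlt1c, and none of these 4 passed. With the bulb score as a covariate in all 8 mice, the difference of Tmem181b-ps was 0.65 (SE 0.11, limma adjusted p 0.0718). Without WT-Veh replicate 1 alone, the differences were 0.45 for Tmem181b-ps, 0.17 for Tmem181a, 0.42 for Tmem181c-ps and 0.35 for the summed Tmem181 counts. Over all alternatives the adjusted p of Tmem181b-ps ran from 0.0465 to 0.999.

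The family sums gave the same direction. Summed Tmem181 counts were 4839, 9015, 8220 and 8470 in WT-Veh and 10415, 11583, 10798 and 10887 in HT-Veh, so that the groups did not overlap and the HT-Veh mean was 143% of the WT-Veh mean. Summed Dynlt1b and Dynlt1c were 396, 387, 350.4 and 433 in WT-Veh and 569, 460.5, 521 and 590.4 in HT-Veh, again without overlap, at 137%. The sum over all 4 Dynlt1 genes was 746 ± 54.9 in WT-Veh and 881 ± 44.1 in HT-Veh, at 118%. The log2 differences were 0.56 (SE 0.21), 0.45 (SE 0.10) and 0.24 (SE 0.063). Each had an exact permutation p of 0.0286 (two-sided), the smallest that 4 against 4 mice allow, and an adjusted p of 0.0857 over the 9 sums and comparisons tested, which does not pass. These sums could not pass after adjustment, however large the difference, unless sums of the fluoxetine comparisons also reached that smallest p. No conclusion is therefore drawn from the adjusted value. Without the libraries high in bulb markers the differences were 0.35, 0.40 and 0.22 (exact permutation p 0.10, the smallest possible there).

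Within HT mice, no copy passed the test between fluoxetine and vehicle. Tmem181b-ps was at 7531 ± 1507 in HT-Flx against 6920 ± 416 in HT-Veh, and Tmem181a at 3800 ± 239 against 3766 ± 127. The log2 differences were 0.10 (SE 0.12) for Tmem181b-ps, 0.012 (SE 0.065) for Tmem181a, 0.027 (SE 0.18) for Tmem181c-ps, -0.0072 (SE 0.14) for Dynlt1b and 0.23 (SE 0.19) for Dynlt1c. By limma the adjusted p was 1.00 for each, and 0 of 16814 genes passed (0%), with 516 at an unadjusted p under 0.05. The summed Tmem181 counts differed by 0.072 (SE 0.12, exact permutation p 0.571) and the summed Dynlt1b and Dynlt1c by 0.063 (SE 0.14, exact permutation p 0.743), with adjusted p-values of 0.857 and 0.914. Without HT-Flx replicate 1 the difference of Dynlt1c was 0.12, and without HT-Veh replicate 4 it was 0.38. HT-Flx mice also belong to the contrast from which the copies were picked. That choice favours high HT-Flx values of Tmem181b-ps and Tmem181c-ps, so these differences and p-values are not independent of it.

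Within WT mice, the Tmem181 copies had lower means with fluoxetine, and no difference passed. Tmem181b-ps was at 3505 ± 359 in WT-Flx against 4417 ± 1288 in WT-Veh, and Tmem181c-ps at 85.2 ± 19.3 against 146 ± 67.2. The log2 differences were -0.28 (SE 0.21) and -0.65 (SE 0.37), with -0.069 (SE 0.13) for Tmem181a, -0.055 (SE 0.21) for Dynlt1b and 0.14 (SE 0.24) for Dynlt1c. By limma the adjusted p was 1.00 for each, and 0 of 16833 genes passed (0%), with 707 at an unadjusted p under 0.05. The summed Tmem181 counts, at 6328, 5950, 6616 and 7034 in WT-Flx, differed from WT-Veh by -0.20 (SE 0.21, exact permutation p 0.429, adjusted 0.771). WT-Flx mice also belong to the contrast from which the copies were picked. That choice favours low WT-Flx values of Tmem181b-ps and Tmem181c-ps, so the p-values and differences here are not independent of it. WT-Veh replicate 1 weighed on these values: without it the 3 other WT-Veh mice were above all 4 WT-Flx mice in the summed counts, and the differences were -0.40 for the sum, -0.21 for Tmem181a, -0.53 for Tmem181b-ps and -1.04 for Tmem181c-ps. Without WT-Veh replicate 2 Tmem181b-ps was at -0.17, and without WT-Veh replicate 4 Tmem181c-ps was at -0.42. The bulb scores of these 3 mice, 4.03 to 4.40, lie below all 4 of WT-Flx, and their part in the difference of the sums was not tested. With the bulb score as a covariate, Tmem181b-ps differed by -0.072 and Tmem181c-ps by -0.28.

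In HT-Flx against WT-Flx, the contrast behind the choice of Tmem181b-ps and Tmem181c-ps, the values are a description. The HT-Flx mean was 215% of the WT-Flx mean for Tmem181b-ps, 283% for Tmem181c-ps, 131% for Tmem181a, 128% for Dynlt1b and 179% for Dynlt1c. Only Dynlt1b overlapped between the groups, where 2.7% of all 16788 genes were higher without overlap and 0.0417% passed the limma test. The summed Tmem181 counts were 12227, 9316, 13476 and 11272 in HT-Flx, at 179% of the WT-Flx mean. The log2 differences were 1.09 (SE 0.14) for Tmem181b-ps, 1.49 (SE 0.22) for Tmem181c-ps, 0.39 (SE 0.082) for Tmem181a, 0.40 (SE 0.22) for Dynlt1b and 0.84 (SE 0.21) for Dynlt1c. Without WT-Flx replicate 2, the lowest in Dynlt1b, the difference of Dynlt1b was 0.23. This contrast is also the one in which the bulb scores of the groups do not overlap, and with that score as a covariate the difference of Tmem181b-ps was 1.07 (SE 0.24). Without overlap, genotype and bulb score cannot be told apart by this fit.

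**Figure D4:**
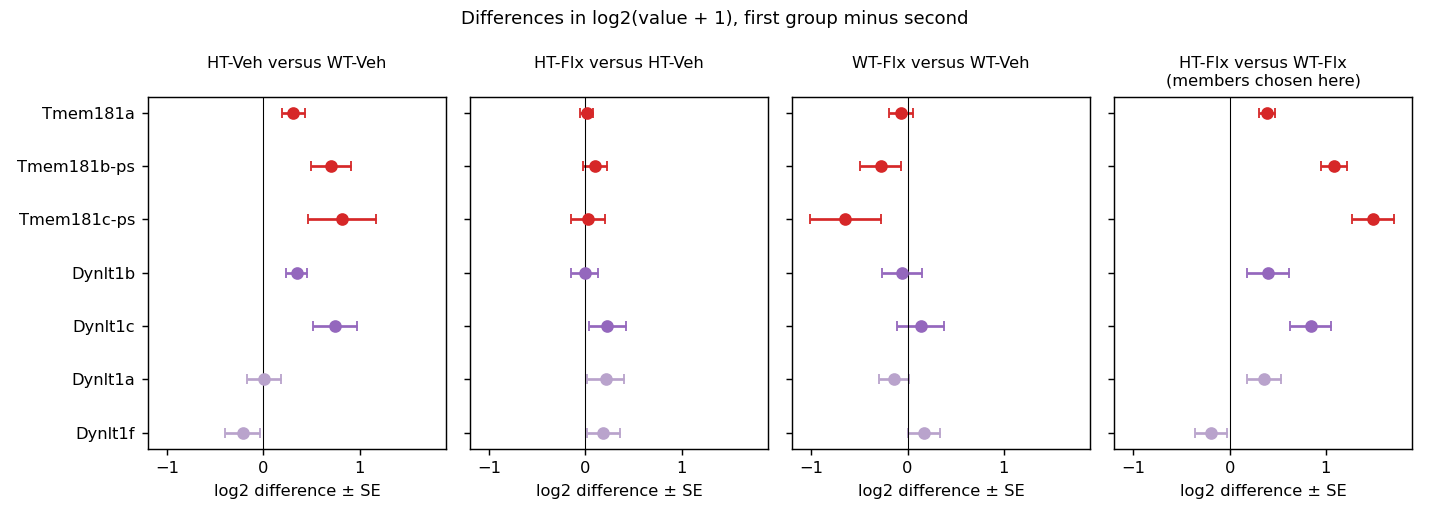
Log2 differences with their SE for the 5 copies and the paralogs Dynlt1a and Dynlt1f in 4 comparisons, first group minus second. All 5 copies are above 0 in both comparisons of HT with WT, from 0.31 to 0.82 with vehicle and from 0.39 to 1.49 with fluoxetine, and within genotype they lie from -0.0072 to 0.23 in HT and from -0.65 to 0.14 in WT.

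The fluoxetine change in HT minus that in WT, which shares mice with the contrast of choice and is also a description, was 0.38 (SE 0.27) for Tmem181b-ps, 0.68 (SE 0.44) for Tmem181c-ps and 0.080 (SE 0.15) for Tmem181a. It was 0.048 (SE 0.26) for Dynlt1b and 0.094 (SE 0.32) for Dynlt1c. Without WT-Veh replicate 1 the first 2 were 0.63 and 1.07, and without WT-Veh replicate 4 that of Tmem181c-ps was 0.45. With the bulb score as a covariate the first 3 were 0.12, 0.19 and -0.082.

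The Tmem181 copies did not differ by the same factor. Tmem181b-ps stood to Tmem181a at a ratio of 1.41 ± 0.20 in WT-Veh and 1.21 ± 0.091 in WT-Flx, against 1.84 ± 0.12 in HT-Veh and 1.97 ± 0.31 for HT-Flx (mean ± SD, n = 4). Every HT mouse, from 1.59 to 2.34, was above every WT mouse, from 1.11 to 1.56. As a share of the summed family, Tmem181b-ps held 57.2% ± 3.46 in WT-Veh and 54.0% ± 1.75 in WT-Flx, against 63.3% ± 1.36 in HT-Veh and 64.7% ± 3.49 in HT-Flx, while Tmem181c-ps held 1.31% to 2.15% in the group means. Per kb of exon, the share of Tmem181b-ps was 64.3%, 62.4%, 68.9% and 70.1% in the same order. These shares rest on how reads were divided among the copies, and on Tmem181b-ps values that took part in the choice.

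**Figure D5:**
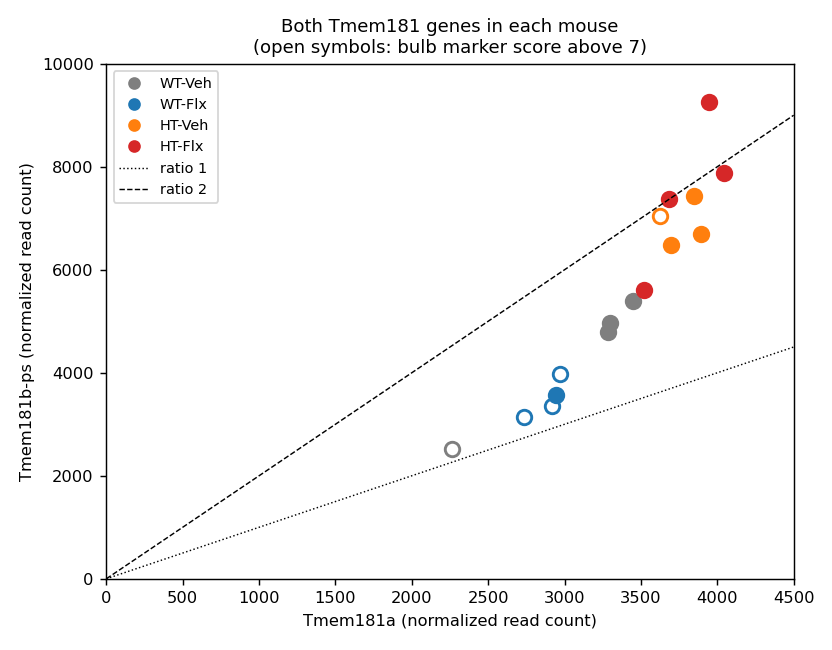
Tmem181b-ps against Tmem181a in each mouse (normalized read counts), coloured by group, with lines at ratios of 1 and 2 and open symbols for libraries with a bulb marker score above 7. The 8 HT mice lie at the upper right with ratios of 1.59 to 2.34, and WT-Veh replicate 1 lies lowest, at a ratio of 1.11.

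The paralogs outside the list were compared in the same way. Dynlt1a, whose coding sequence equals that of Dynlt1c, was at 253 ± 29.0, 231 ± 43.6, 258 ± 59.9 and 297 ± 61.1, in the order of the plot of values by mouse (both WT groups, then both HT groups, vehicle first). Its log2 difference between HT-Veh and WT-Veh was 0.0057 (SE 0.18). Dynlt1f was at 102 ± 18.5, 113 ± 10.4, 87.4 ± 13.8 and 99.1 ± 11.8, with a difference of -0.21 (SE 0.18). Between HT-Flx and WT-Flx the differences were 0.36 (SE 0.18) for Dynlt1a, close to those of Dynlt1b and Tmem181a in that contrast, and -0.20 (SE 0.17) for Dynlt1f. Neither passed by limma in any of the 3 comparisons tested (adjusted p 0.922 or more).

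Of 17567 genes with enough signal, 15 were higher in all 8 HT mice than in all 8 WT mice (0.0854%), Tmem181a and Tmem181b-ps among them, and 8 were lower in all of them. The 8 Flx mice among these also served the choice of Tmem181b-ps, so that its place here is a description.

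The other genes of the interval were higher and lower in similar numbers. Between 4.9 and 7.0 Mb of chromosome 17, 14 genes other than the 5 copies were listed, Arid1b, Dynlt1a and Dynlt1f among them. In HT-Veh against WT-Veh, 8 were higher and 6 lower, 0 passed by limma, and their median log2 difference was 0.0041, beside 0.00615 for all genes. There Arid1b itself, at -0.38 (SE 0.13), was the only one with an unadjusted p under 0.05 (limma adjusted p 0.922). Tulp4, the nearest listed gene before Tmem181a, was at 0.16 (SE 0.17), and Ezr, which encodes the membrane-cytoskeleton linker ezrin and is the first listed gene after Dynlt1f, at 0.15 (SE 0.11). In HT-Flx against WT-Flx, 7 were higher and 7 lower with a median of 0.025, beside 0.0081 for all genes, and 0 passed by limma, with 3 at an unadjusted p under 0.05. These were Tulp4 at 0.36 (SE 0.15, adjusted p 0.43), Synj2 at 0.31 (SE 0.12, adjusted p 0.427) and Arid1b at -0.39 (SE 0.097, adjusted p 0.289), while Ezr was at -0.020 (SE 0.0925).

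None of the other dynein and dynactin genes passed in the comparisons tested. All 19 of the list had enough signal. In HT-Veh against WT-Veh, 5 were higher and 14 lower with a median of -0.023, beside 0.00615 for all genes. In HT-Flx against HT-Veh, 14 were higher and 5 lower (median 0.017), and in WT-Flx against WT-Veh 10 were higher and 9 lower (median 0.0041). By limma 0 passed in each of these comparisons, with 2, 0 and 1 at an unadjusted p under 0.05. In HT-Flx against WT-Flx, 8 were higher and 11 lower (median -0.034, beside 0.0081 for all genes). There 0 passed by limma, and 2, both lower in HT-Flx, had an unadjusted p under 0.05. Dync1h1, the motor-bearing heavy chain, was lowest in HT-Veh (14839 ± 1454, against 17786 ± 1447 in WT-Veh) and highest in WT-Flx (23433 ± 2423).

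The genes whose pattern over the 16 mice was most like the summed Tmem181 counts were Mink1 (Pearson's r 0.903), Jph4 (0.884), Otof (0.873), Unc13c (0.868) and Crtc1 (0.868). For the summed Dynlt1b and Dynlt1c they were Gpr34 (0.819), Ddn (0.815), Prkcd (0.773), Hk1os (0.767) and Chd1l (0.754), of which Hk1os was low, with group means from 6.01 to 14.1. None of these 10 genes lies on chromosome 17. Otof, which encodes otoferlin, had normalized read counts of 861 ± 142, 984 ± 108, 1483 ± 257 and 1607 ± 184 in that order of groups. Ddn, which encodes the postsynaptic protein dendrin, was at 32751 ± 921, 33783 ± 2608, 39782 ± 1078 and 40692 ± 3411. The points are mice of 4 groups that share normalization and differ in bulb markers, whose score had an r of -0.708 with the summed Tmem181 counts and of -0.192 with the summed Dynlt1b and Dynlt1c, so these values of r carry no test.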

How the data were processed

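RNA sequencing libraries of medial prefrontal cortex were compared between 4 groups of 4 mice, as the sample titles give them. The authors made stranded poly-A libraries, quantified paired-end reads with Salmon (1.1.0) on GRCm38, collapsed transcripts into genes (tximport) and scaled the result in DESeq2 (1.30.1), so the deposited signal is a normalized, fractional read count per gene. No value above 0 was whole within 1e-06, so reads could not be recovered, and no interval that needs the depth is given. Salmon shares reads of near-identical copies among them by estimation. Normalized totals were 92.8% to 104% of their mean, and no columns were identical. All 16 columns were used, and 18411 of 18424 genes had a symbol.

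Each comparison was tested with limma (3.58.1 in R 4.3.3, trend) on log2(value + 1), over genes at 10 or more in at least 4 libraries of the fit, with Benjamini-Hochberg adjustment and a threshold of 0.05, two-sided. A design for whole counts was not needed. Family sums were tested by exact permutation. Both were checked on simulated data. Positions and transcripts are those of GENCODE M21 (GRCm38), and copies were aligned with mafft (7.526). Genes named are the 5 copies, Arid1b, other listed chromosome 17 Tmem181 and Dynlt1 genes, and the 5 genes most correlated with each family sum. Dync1h1, Tulp4, Synj2 and Ezr were named after their values were seen. The members and lists were chosen with earlier results of these data known. Other annotated genes of the interval were not analysed here. Alternatives were pseudocounts of 0.1 and 8, no filter, a mean of at least 100, a common upper quartile, all 4 groups in the fit, the bulb score as covariate, a replicate block, omission of each mouse, and, added after seeing the data, leaving out the libraries high in bulb markers. For shares, division by exon length was tried.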

Additional observations from a re-analysis of the deposited data

Results flagged for a closer look

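Of 44 sets of 4 values examined (the 5 copies, Dynlt1a, Dynlt1f, 3 family sums and the ratio of Tmem181b-ps to Tmem181a, each in 4 groups), 2 held a mouse whose gap to its nearest neighbour, as a share of the range of its group, exceeded the 95% critical value of Dixon's test, about as many as chance gives (1 in 20). In WT-Veh, replicate 1 was lowest in Tmem181a, at 2262 against 3285 to 3450 in the others. The same library was lowest in Tmem181b-ps (2520) and had the highest bulb score (9.48). In HT-Veh, replicate 4 was highest in Dynlt1c, at 205 against 130.5 to 139 in the others, and had the highest bulb score of its group (7.55).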

How the results depend on the processing

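In HT-Veh against WT-Veh, the 5 copies and 3 family sums kept their direction under every alternative run. The number of genes called there, 3, was 0 with all 4 groups in the fit, 21 with the bulb score as covariate, 0 with the replicate block, 11 without the libraries high in bulb markers (1 of them a copy, Tmem181b-ps), and 0 to 2 without single mice. In WT-Flx against WT-Veh 0 became 2 with the bulb score, and 0 to 4 without single mice (4 without WT-Veh replicate 1). In HT-Flx against WT-Flx 7 became 4 with a pseudocount of 0.1, 0 with a mean of at least 100, 4 with all 4 groups, 0 with the bulb score and 0 to 23 without single mice (23 without WT-Flx replicate 3).

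Values near 0 changed sign, the cause of which was not tested. In HT-Flx against HT-Veh, Tmem181a was at -0.0094 with the common upper quartile, -0.011 with the bulb score and -0.0066 without HT-Veh replicate 4, Tmem181c-ps at -0.050 with the bulb score and -0.021 without that library, and Dynlt1b at 0.017 with the bulb score. In WT-Flx against WT-Veh, Tmem181a was at 0.056 with the bulb score. Without single mice, values in HT-Flx against HT-Veh ran from -0.019 to 0.047 for Tmem181a, -0.0054 to 0.24 for Tmem181b-ps, -0.083 to 0.15 for Tmem181c-ps, -0.085 to 0.12 for Dynlt1b, -0.0058 to 0.17 for the Tmem181 sum and -0.023 to 0.17 for the Dynlt1b and Dynlt1c sum. In WT-Flx against WT-Veh they ran from -0.19 to 0.11 for Dynlt1b, -0.14 to 0.15 for the Dynlt1b and Dynlt1c sum and -0.054 to 0.071 for the wider Dynlt1 sum.

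The replicate numbers come from the titles and belong to different mice. Deviations of same-numbered mice correlated at -0.23 to 0.31, and in no comparison did all 4 pairs exceed 0.1. The mice were therefore not treated as paired, although these values cannot exclude a pairing by number. With the replicate block no copy was called in the 3 comparisons tested, and the HT-Veh against WT-Veh sums kept their log2 differences of 0.56, 0.45 and 0.24 at the smallest p that an exact sign-flip permutation of 4 pairs allows. The mean of at least 100 left Dynlt1c out of WT-Flx against WT-Veh. Precision is limited by 4 mice a group, by the unknown depth and by reads that fit several copies. Fluoxetine was given to dams and the labels do not give litters, so mice of a group may be littermates. The tests treat each mouse as independent.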
